A study of Mus musculus with 25 samples.

Results

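Replication-dependent histone genes encode the linker histone H1 and the core histones H2A, H2B, H3 and H4 that package newly copied DNA. They were taken as all rows of the lung count table whose symbol begins with Hist1h, Hist2h, Hist3h or Hist4h, or carries the equivalent newer name. Of 71 such rows, 4 are annotated as pseudogenes and were dropped (Hist3h2bb-ps, Hist1h2aj, Hist1h2al and Gm11398), which left 67 genes of 55421 in the table. These are 6 genes for H1, 18 for H2A, 18 for H2B, 12 for H3 and 13 for H4. On the GRCm38 build 54 of them lie within 2.22 Mb of chromosome 13, 10 within 0.0503 Mb of chromosome 3, 2 on chromosome 11 and 1 on chromosome 6.

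The libraries came from lungs of female wild-type mice, whose strain the sample labels give as C57BL/6J and the design text as C57BL/6cmdb. House dust mite (HDM) extract, an allergen preparation that provokes airway inflammation, was given into the nose, and the study compared a short with a long model. There were 5 groups of 5 mice: saline, 10 µg of extract and 100 µg of extract killed at 2 weeks, and saline and 100 µg of extract killed at 12 weeks. One label calls the saline lungs untreated, and neither age nor number of doses is stated in the sources used here. Age, length of treatment and time of collection cannot be told apart in a comparison of 12 with 2 weeks.

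Histone genes of this kind are transcribed mainly while a cell replicates its DNA, when the NPAT protein at their promoters is activated by the cell-cycle kinase CDK2. Their mRNAs are unusual in ending, in most cases, with a conserved stem-loop instead of a poly(A) tail; the stem-loop is bound by SLBP, cut by a complex that contains the U7 small nuclear RNA, and needed for rapid decay once replication stops. Some members can also be read through to a downstream poly(A) site, a form seen in cells that have left the cell cycle. The libraries were made from total RNA, which keeps transcripts without a poly(A) tail. In lung tissue, as in any bulk sample, fewer cells of a type and less RNA per cell cannot be told apart.

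Library totals were 25.4 M to 51.9 M counts (M, mega), except 7.23 M in the library labelled saline, 2 weeks, replicate 4. That library stood apart: 33.7% of its counts fell on ribosomal RNA genes and 9.80% on mitochondrial genes, against 0.258% to 1.12% and 1.99% to 3.59% in the other saline libraries at 2 weeks. Ribosomal RNA genes here include those of the mitochondrial genome, which therefore count in both shares. At 12 weeks ribosomal RNA took 2.95% to 4.40% of counts in saline libraries and 1.31% to 2.92% in those given 100 µg, and at 2 weeks 1.72% to 3.19% in the latter treatment. The summed level of 7 lung-defining genes, among them surfactant proteins and the club-cell protein gene Scgb1a1, ranged from 28020 to 62189 CPM in saline at 2 weeks and from 21462 to 26490 CPM in saline at 12 weeks. Most of the difference lay in Scgb1a1, which averaged 27702.5 CPM at 2 weeks and 8786.3 CPM at 12 weeks in saline. CPM here are counts scaled to a common library total after normalization by the trimmed mean of M values (TMM). Log2 fold changes are given with their standard error (SE), and calls rest on edgeR's quasi-likelihood F-test with adjusted p-values below 0.05. A total of 19654 genes, 56 of the 67 histone genes among them, had enough counts to be tested.

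A search of the annotated transcripts for the stem-loop found it in 46 of 67 histone genes (68.7%) and in 31 of 21834 other protein-coding genes (0.142%). The sequences below show the shared element and how the H4 genes differ from the others in the stem. Capitals mark the paired stem and lower case the loop, written as DNA 5′ to 3′ on the gene's strand (GRCm38).
Hist1h3d, chr13:23576244-23576259, plus strand: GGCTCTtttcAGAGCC
Hist3h2a, chr11:58955172-58955187, plus strand: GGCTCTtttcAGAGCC
Hist1h2bb, chr13:23747203-23747218, plus strand: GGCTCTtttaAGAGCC
Hist1h3g, chr13:23535889-23535904, plus strand: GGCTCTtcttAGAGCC
Hist1h4d, chr13:23581950-23581965, plus strand: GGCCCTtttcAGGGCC
Hist2h4, chr3:96262939-96262954, minus strand: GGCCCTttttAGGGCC
The first form was shared by 26 genes of the H1, H2A, H2B and H3 classes, and the Hist1h4d form by 7 genes, all of class H4. Most genes without a match have a gene model that ends at or just after the stop codon, so their true ends were not searched. In 16 genes the annotated transcript runs 600 bases or more past the coding sequence, up to 4934 bases in Hist1h1d. Hist3h2a, for example, carries 1643 annotated bases beyond its stem-loop. The 600-base limit was chosen after the values were seen, in a gap between 506 bases (Hist1h4c) and 745 bases (Hist1h2bc).

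Summed over the 67 genes, histone transcripts made up 0.0255% to 0.153% of each library's counts. Expressed per length, the highest mean level over the 25 libraries was that of Hist1h4d, an H4 gene, at 110 CPM per kb of exon. It was followed by Hist1h4h (H4) at 72.3, Hist1h2bc (H2B) at 56.1, Hist1h2ak (H2A) at 55.2, Hist1h1c (H1) at 52.6 and Hist1h1e (H1) at 43.6 CPM per kb. The 5 genes with the most counts, Hist1h4d, Hist1h1e, Hist1h1c, Hist1h2bc and Hist2h4, held 49.3% of the summed CPM. All 5 have a long annotated 3′ end.

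Between 2 and 12 weeks most histone genes rose, in the saline groups and in the 100 µg groups alike. The summed CPM of the 67 genes was 701.6, 821.5, 602.9, 403.4 and 633.8 in the 5 saline libraries at 2 weeks, against 905.7, 841.1, 1081, 1182 and 1102 at 12 weeks. It was 603.3, 749.2, 561.2, 632.5 and 584.2 at 100 µg and 2 weeks, against 1191, 1108, 959.4, 1516 and 1220 at 12 weeks. All 12-week libraries lay above all 2-week libraries of the same treatment, and the group means were 1.62 times apart in saline and 1.92 times apart at 100 µg. The saline mean at 2 weeks includes replicate 4, the library that stood apart, which had the lowest sum (403.4 CPM) and widens the saline ratio. The sum was 687 ± 91.6 CPM (SD, n = 5) in the 10 µg group at 2 weeks and overlapped the saline group. By class, the mean H3 sum differed the most, 3.46 times in saline and 3.30 times at 100 µg, and the mean H2B sum the least, 1.18 and 1.72 times. In the H3 sum, replicate 4 of saline at 2 weeks held 17.3 CPM, beside 33.1 to 57.5 CPM in the rest of its group. The order of the 2 H3 ratios therefore leans on that library. Gene by gene the order was another: the median log2 fold change of the tested H2B genes was 1.76 in saline and 1.88 at 100 µg, beside 1.29 and 1.29 for H1, 1.57 and 1.75 for H2A, 1.93 and 1.85 for H3 and 1.27 and 1.63 for H4. Hist1h2bc alone averaged 83.6 CPM in saline at 2 weeks, where the mean H2B sum was 147 CPM, and 57.9 CPM of a mean sum of 173 CPM at 12 weeks.

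**Figure D1:**
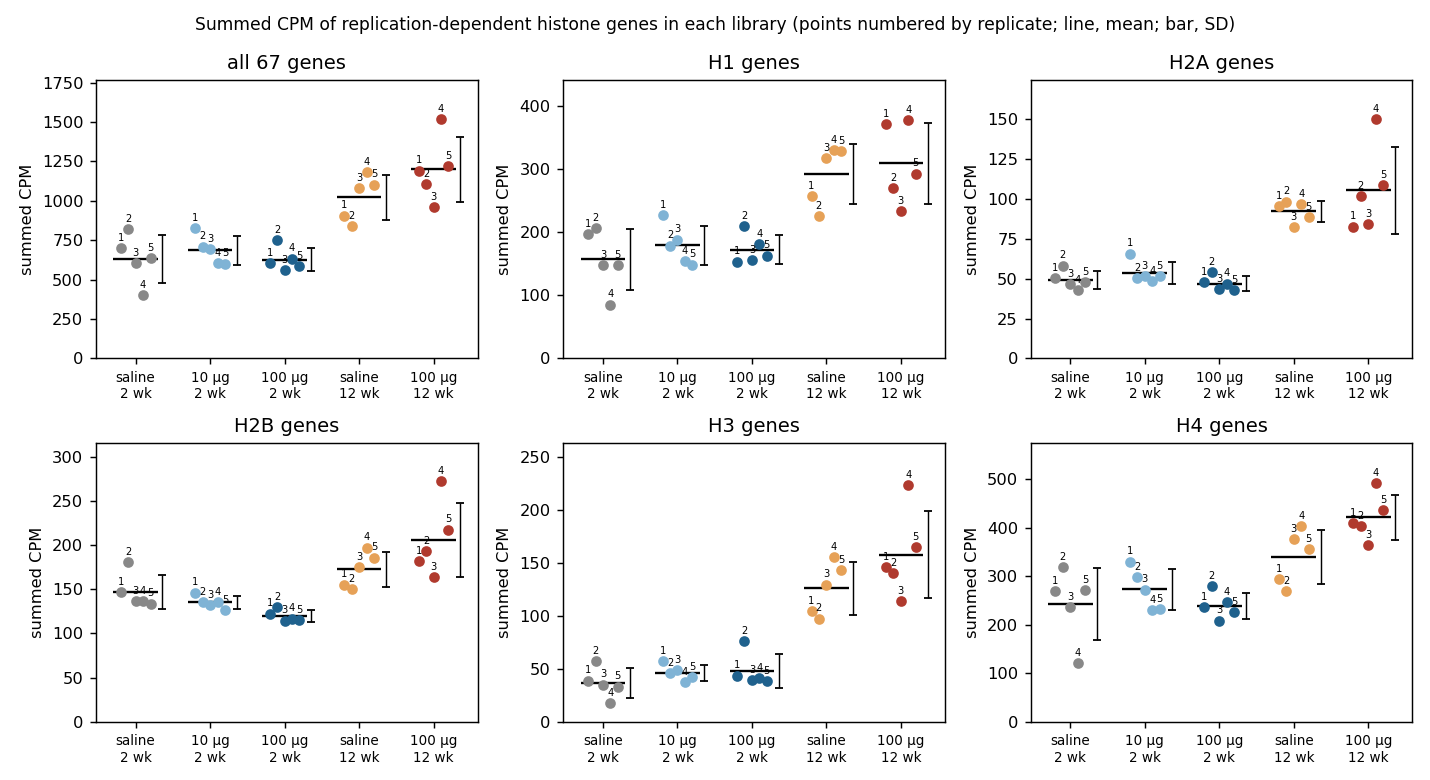
Summed CPM (vertical axes, from 0) of the 67 replication-dependent histone genes and of each histone class in every library, by group (horizontal axes); points are libraries numbered by replicate, lines are means and bars SDs over 5 mice. All 12-week libraries lie above all 2-week libraries of the same treatment in the sum over all genes and in the H1, H2A and H3 sums, and replicate 2 of the 100 µg group at 2 weeks stands high in H3 at 75.8 CPM.

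In the saline groups 45 of the 56 tested histone genes were called higher at 12 than at 2 weeks and 3 were called lower, while 28.5% of all tested genes were called higher and 25.6% lower. Their median log2 fold change was 1.55, beside 0.04 over all genes tested. All 5 tested H1 genes rose, as did 9 of 12 H2A genes, 12 of 15 H2B genes, 10 of 11 H3 genes and 9 of 13 H4 genes. Every 12-week library lay above every 2-week library for 34 of the 56, beside 17.8% of all genes, and below for 3, beside 15.3%. In a refit without replicate 4 of the 2-week saline libraries, 44 histone genes were called higher and 4 lower. That refit used its own count filter, and these counts include genes outside the 56. Among the 56, only Hist1h2bc, Hist3h2a and Hist2h2be were called lower there, and the calls of Hist1h1e and Hist2h2ac were lost (adjusted p 0.0787 and 0.0747).

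Hist1h1b (ENSMUSG00000058773, chr13:21779883-21780625, minus strand) encodes the linker histone H1.5 and shares no 50-base window with another annotated gene. Its levels in saline at 2 weeks were 3.64, 3.03, 2.11, 2.62 and 2.53 CPM, and at 12 weeks they were 15.0, 16.1, 16.5, 22.5 and 18.1 CPM. The groups were far apart, with a log2 fold change of 2.65 ± 0.23 (SE) and an adjusted p of 3.85e-09. At 100 µg it stood at 3.71, 6.73, 3.26, 3.44 and 3.70 CPM at 2 weeks and at 18.4, 16.2, 11.6, 26.5 and 17.4 CPM at 12 weeks, again without overlap (2.11 ± 0.21, adjusted p 1.91e-07). Hist1h1a, for the linker histone H1.1, rose in both comparisons as well, by 2.04 ± 0.24 in saline (adjusted p 2.73e-07) and 1.38 ± 0.24 at 100 µg (adjusted p 9.80e-05).

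The highly expressed linker genes moved less. Hist1h1e, for H1.4, was 68.2 ± 20.5 CPM in saline at 2 weeks and 96.2 ± 21.6 at 12 weeks (n = 5 each), a log2 fold change of 0.48 ± 0.18 (adjusted p 0.0273) with overlapping groups. That call was kept in 10 of 18 alternatives and lost without replicate 3, 4 or 5 of either saline group. Without replicate 4 at 2 weeks the change was 0.32 (adjusted p 0.0787). At 100 µg Hist1h1e was called higher (0.45), a call kept in only 5 of 18 alternatives, with adjusted p from 0.0505 to 0.157 in the others. Hist1h1c, for H1.2, rose by 0.74 ± 0.20 in saline (adjusted p 0.00363) and by 0.86 ± 0.20 at 100 µg (adjusted p 0.00189). Hist1h1d, for H1.3, rose by 1.29 ± 0.19 in each of these comparisons. Hist1h1t, the testis linker histone gene, held 124 counts over all 25 libraries and was not tested.

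Among the H3 genes, Hist1h3d had 3.68, 5.42, 3.74, 3.28 and 3.51 CPM in saline at 2 weeks and 11.8, 12.9, 10.6, 12.1 and 10.9 CPM at 12 weeks. The 12-week values were tightly grouped and all above the 2-week values, with a log2 fold change of 1.54 ± 0.17 (adjusted p 8.71e-08). At 100 µg it rose by 1.60 ± 0.17 (adjusted p 2.58e-07). Hist1h3g rose from 1.87 ± 0.742 to 9.20 ± 0.793 CPM in saline (n = 5 each; log2 fold change 2.21 ± 0.25, adjusted p 9.78e-08). Hist1h3b had 4.09, 8.07, 3.46, 2.93 and 3.44 CPM at 100 µg and 2 weeks and 14.5, 22.8, 18.0, 38.0 and 26.0 CPM at 12 weeks. Replicate 2 was the highest of its group at 2 weeks and replicate 4 at 12 weeks, and the groups did not overlap (2.43 ± 0.25, adjusted p 2.68e-07). Hist1h3e, Hist1h3f and Hist2h3b, the other H3 genes with the highest mean CPM, rose by 1.46 to 1.50 in saline. Hist2h3c2 was the H3 gene not called in either comparison, with 0.454 ± 0.178 and 0.514 ± 0.179 CPM in saline at 2 and 12 weeks.

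Of the H2A and H2B genes, Hist1h2ak had 12.0, 15.6, 9.31, 12.2 and 13.8 CPM in saline at 2 weeks and 39.9, 43.7, 25.5, 32.2 and 29.4 CPM at 12 weeks. Replicates 1 and 2 were the highest at 12 weeks, and every value exceeded those at 2 weeks (1.43 ± 0.17, adjusted p 2.57e-07). Hist1h2an rose by 2.12 ± 0.25 in saline (adjusted p 2.69e-07), and Hist1h2ai and Hist1h2bj rose at 100 µg by 1.86 ± 0.22 (adjusted p 1.88e-06) and 2.53 ± 0.30 (adjusted p 1.71e-06). The highest fitted log2 fold change in saline was that of Hist1h2bk, 3.29 ± 0.44, on 0 to 20 counts per library at 2 weeks and 36 to 113 at 12 weeks. Hist2h2ac, an H2A gene of the chromosome 3 cluster, rose less, by 0.46 ± 0.18 in saline (adjusted p 0.0313) with overlapping groups and by 0.98 ± 0.18 at 100 µg (adjusted p 0.000160). The saline call was lost without replicate 4 or 5 at 2 weeks or replicate 3 or 4 at 12 weeks, with adjusted p from 0.0618 to 0.0747. Hist1h2bb rose by 1.76 ± 0.25 and 1.82 ± 0.24, Hist1h2bn by 1.50 ± 0.20 and 1.51 ± 0.20, and Hist1h2af by 1.70 ± 0.21 and 1.34 ± 0.20 in saline and at 100 µg. Hist1h2be, an H2B gene with a mean of 31.5 CPM over all libraries, was not called in saline (log2 fold change -0.06). At 100 µg it was called higher (0.29). That call was kept in only 1 of 18 alternatives, with adjusted p from 0.0530 to 0.204 in the others. Its gene model overlaps Hist1h1e on the same strand.

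Of the 4 H4 genes with the highest mean CPM, 3 were not called in saline. Hist1h4d had 124.2, 164.2, 114.3, 43.9 and 133.6 CPM in saline at 2 weeks and 101.8, 95.4, 148.8, 150.2 and 126.1 CPM at 12 weeks. Replicate 4 was the lowest at 2 weeks, the groups overlapped, and the gene was not called (0.09 ± 0.20, adjusted p 0.730). Without that library, the one that stood apart in ribosomal RNA, its log2 fold change was -0.12 (adjusted p 0.426). At 100 µg it rose by 0.57 ± 0.20 (adjusted p 0.0247), without overlap between groups, a call kept in 13 of 18 alternatives and lost without replicate 3, 4 or 5 at 2 weeks or replicate 4 or 5 at 12 weeks, with adjusted p from 0.0516 to 0.0597. Hist1h4h and Hist1h4c were likewise not called in saline (0.40 ± 0.24 and 0.45 ± 0.23) and rose at 100 µg (1.16 ± 0.25 and 0.97 ± 0.23). Without replicate 4 of saline at 2 weeks their changes in saline were 0.22 (adjusted p 0.393) and 0.27 (adjusted p 0.233). Hist1h4c was called in saline without replicate 2 of the 2-week group (0.60, adjusted p 0.0310) or of the 12-week group (0.59, adjusted p 0.0296). Hist2h4 was called higher in saline (0.59 ± 0.19, adjusted p 0.00965), but not without replicate 1 of the 12-week group (adjusted p 0.0602), and was not called at 100 µg (0.06 ± 0.19). The difference between both changes over time was not called for any of these 4 genes, with adjusted p from 0.162 for Hist1h4h to 0.314 for Hist1h4c.

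In the 100 µg groups 52 of the 56 genes were called higher at 12 than at 2 weeks and 1 lower, beside 22.1% and 16.4% of all tested genes. For 49 of them every 12-week library lay above every 2-week library, beside 14.4% of all genes. The median was 1.78, beside 0.02 over all genes. No library is shared between this comparison and that of the saline groups, but both come from the same fit of all 25 libraries and compare the same times. Of the 45 genes higher in saline 44 were also higher at 100 µg (97.8% of the first set and 84.6% of the second), and Hist2h4 was the exception. A large overlap follows from 52 of the 56 being called higher at 100 µg. By class, 5 of 5 H1 genes, 11 of 12 H2A, 14 of 15 H2B, 10 of 11 H3 and 12 of 13 H4 genes rose. Among these, the calls of Hist1h1e, Hist1h2be and Hist1h2bc were kept in only 5, 1 and 3 of 18 alternatives.

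**Figure D2:**
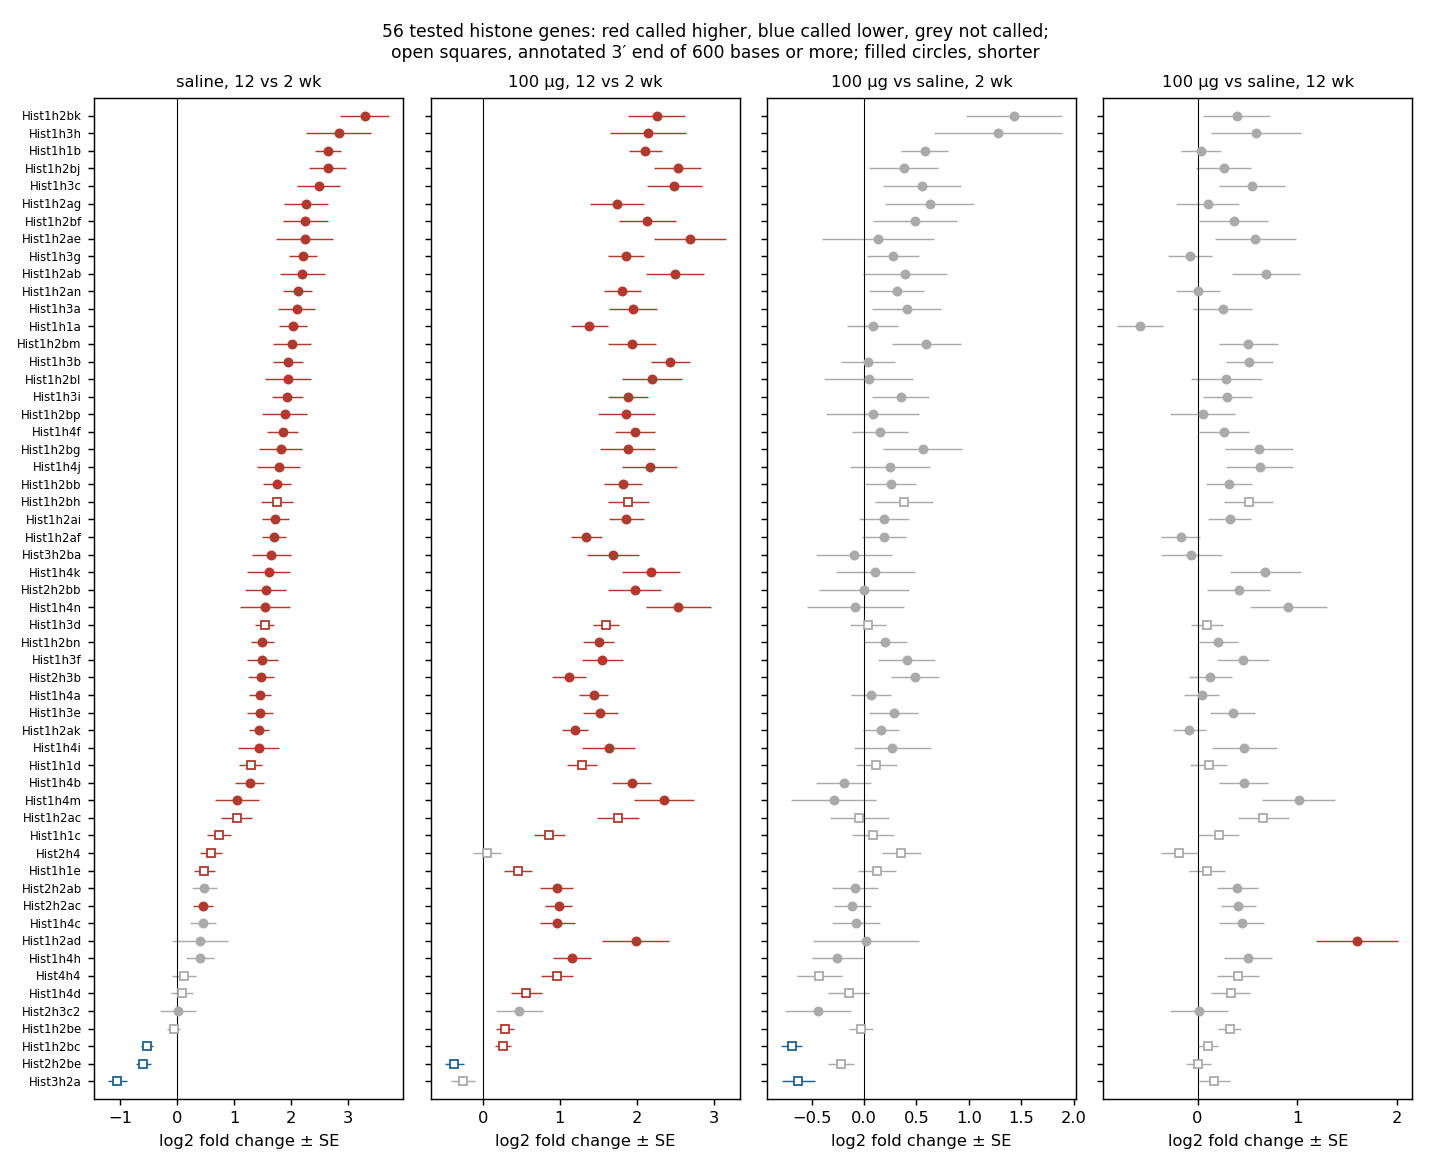
Log2 fold change with SE (horizontal axes) of the 56 tested histone genes (rows, ordered by the first panel) in 4 comparisons; red, called higher; blue, called lower; grey, not called; open squares, annotated 3′ end of 600 bases or more; filled circles, shorter. In both comparisons of 12 with 2 weeks most genes lie to the right of 0 (45 and 52 called higher), while 2 are called in 100 µg against saline at 2 weeks and 1 at 12 weeks.

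Hist1h2bc (ENSMUSG00000018102, chr13:23684199-23692908, plus strand) encodes an H2B and has a spliced gene model; Hist3h2a (ENSMUSG00000078851, chr11:58954685-58956830, plus strand) encodes an H2A outside the main clusters; Hist2h2be (ENSMUSG00000068854, chr3:96221119-96223738, plus strand) encodes an H2B and has a long annotated end. They were the 3 genes called lower in saline at 12 weeks, and all have long annotated 3′ ends.

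Hist1h2bc had 78.9, 96.9, 75.1, 89.2 and 77.8 CPM in saline at 2 weeks and 50.6, 56.5, 57.1, 60.1 and 65.1 CPM in saline at 12 weeks. All 12-week values were lower (-0.53 ± 0.10, adjusted p 0.000113). At 100 µg and 2 weeks it had 54.7, 47.4, 48.6, 53.1 and 55.1 CPM, which also lay below every saline value of that time, and at 100 µg and 12 weeks it had 68.1, 51.1, 54.9, 73.3 and 63.2 CPM. In the 10 µg group it stood between, at 75.1, 75.9, 63.1, 73.4 and 57.0 CPM. Between 2 and 12 weeks at 100 µg it was called higher by 0.26 ± 0.10 (adjusted p 0.0424), with overlapping groups. This call was kept in only 3 of 18 alternatives, with adjusted p from 0.0506 to 0.214 in the others, among them the removal of replicate 1, 2, 3 or 4 at 2 weeks or of replicate 1, 3, 4 or 5 at 12 weeks.

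Hist3h2a had 12.4, 9.33, 10.2, 14.2 and 10.6 CPM in saline at 2 weeks and 6.03, 5.34, 6.77, 4.71 and 4.27 CPM at 12 weeks, all lower (-1.04 ± 0.16, adjusted p 6.97e-06). It had 7.56, 5.35, 7.11, 8.33 and 7.80 CPM at 100 µg and 2 weeks and 4.60, 6.99, 6.83, 5.70 and 6.25 CPM at 12 weeks. Those groups overlapped, and no call was made (-0.25 ± 0.16, adjusted p 0.213). Its annotated transcript overlaps Trim17 on the same strand and a predicted gene on the other, and how such reads were counted is not given in the sources used here.

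Hist2h2be had 12.4, 13.6, 12.7, 13.6 and 10.7 CPM in saline at 2 weeks and 10.1, 6.34, 8.81, 8.16 and 8.21 CPM at 12 weeks, again all lower (-0.59 ± 0.13, adjusted p 0.000419). It was the 1 gene called lower in both comparisons over time, with -0.36 ± 0.13 at 100 µg (adjusted p 0.0249) and overlapping groups. That call was lost without replicate 3 or replicate 5 of the 100 µg group at 2 weeks, when the adjusted p was 0.0895 or 0.0896.

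**Figure D3:**
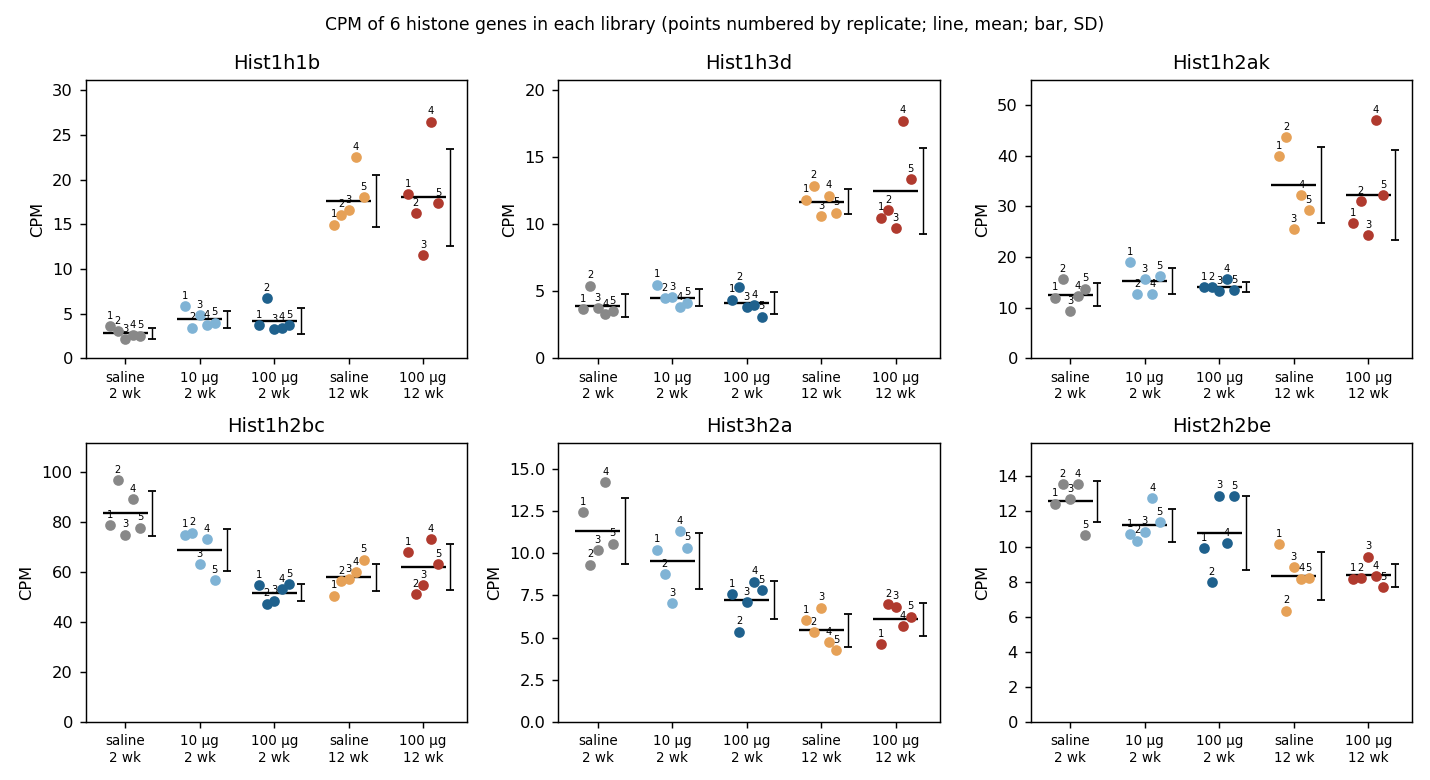
CPM (vertical axes, from 0) of 6 histone genes in every library by group (horizontal axes); points are libraries numbered by replicate, lines are means and bars SDs over 5 mice. Hist1h1b, Hist1h3d and Hist1h2ak are higher in every 12-week library than in any 2-week library, whereas Hist1h2bc, Hist3h2a and Hist2h2be are highest on average in saline at 2 weeks.

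Several histone genes are transcribed away from each other out of a shared gap. There were 12 pairs of an H2A and an H2B gene with starts less than 600 bases apart on opposite strands, and both genes were tested in 8. In saline, both genes of 5 pairs were called higher at 12 weeks, where 45 of the 56 tested histone genes and 28.5% of all tested genes were called higher. Whether paired genes moved together more than other histone genes was not tested. In 2 pairs the calls were opposite: Hist1h2ac rose by 1.05 ± 0.28 while its partner Hist1h2bc fell, and Hist2h2ac rose while Hist2h2be fell. The latter pair was opposite at 100 µg too. The 250 bases before the RefSeq start of Hist1h2ac span nearly the whole gap between the annotated starts of Hist1h2ac and Hist1h2bc. They are shown with the same stretch before Hist1h1b, which rose, and Hist3h2a, which fell (RefSeq, GRCm38.p6). Capitals mark matches, on either strand, to the CCAAT box (CCAAT), the TATA motif (TATAAA), the octamer (ATTTGCAT) and the H1 box (AAACACA); no matches overlap in these 3 sequences.
Hist1h2ac, chr13:23683960-23684209, minus strand: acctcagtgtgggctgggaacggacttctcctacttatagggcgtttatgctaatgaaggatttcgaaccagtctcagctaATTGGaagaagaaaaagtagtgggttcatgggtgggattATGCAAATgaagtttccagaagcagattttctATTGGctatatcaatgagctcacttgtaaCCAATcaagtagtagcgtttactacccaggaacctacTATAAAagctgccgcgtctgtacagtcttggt
Hist1h1b, chr13:21780626-21780875, minus strand: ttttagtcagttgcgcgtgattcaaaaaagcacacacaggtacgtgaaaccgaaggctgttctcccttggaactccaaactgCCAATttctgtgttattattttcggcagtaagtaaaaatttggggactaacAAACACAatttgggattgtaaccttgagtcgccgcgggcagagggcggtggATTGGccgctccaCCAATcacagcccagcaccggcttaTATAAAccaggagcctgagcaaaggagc
Hist3h2a, chr11:58954435-58954684, plus strand: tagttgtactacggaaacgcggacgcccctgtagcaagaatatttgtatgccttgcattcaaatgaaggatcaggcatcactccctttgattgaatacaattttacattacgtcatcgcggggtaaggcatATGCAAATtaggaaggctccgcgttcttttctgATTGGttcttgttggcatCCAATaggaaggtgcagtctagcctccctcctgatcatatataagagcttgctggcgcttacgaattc
Promoters of 61 histone genes, from 250 bases before the start to 50 after it, were in the RefSeq table. CCAAT was found in all 6 H1, 17 H2A, 16 H2B and 10 H3 promoters and in 3 of 12 H4 promoters, beside 37.4% of all 32851 promoters. The octamer was found in 7 of 17 H2A and 7 of 16 H2B promoters and in none of the other classes, beside 1.74% of all promoters. The H1 box was found in 5 of 6 H1 promoters and 7.18% of all promoters. TATAAA was found in 35 of 61, beside 13.6%. A match is a description of these letters and does not show a bound factor.

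The 3 genes that fell lay among the 13 tested genes with a long annotated 3′ end. Of these 13, 7 were called higher and 3 lower in saline at 12 weeks, with a median log2 fold change of 0.48. Over all tested genes 28.5% were called higher and 25.6% lower in that comparison. Of the 43 with a short annotated end, 38 were called higher and 0 lower, with a median of 1.76 (5 were not called in edgeR's test). At 100 µg the counts were 10 higher and 1 lower of 13 with a median of 0.57, and 42 higher and 0 lower of 43 with a median of 1.88. The shares of all tested genes there were 22.1% higher and 16.4% lower. Summed CPM of the short-ended genes was 170 ± 57.7 in saline at 2 weeks and 455 ± 77.1 at 12 weeks (n = 5 each). The sum of the long-ended genes was 462 ± 96.6 and 568 ± 70.4 CPM. Replicate 4 of saline at 2 weeks, the library that stood apart, was the lowest of its group in both sums, with 86.6 and 317 CPM. Long-ended genes were not of one kind: Hist1h2bh and Hist1h3d, both with a stem-loop, rose by 1.76 ± 0.27 and 1.54 ± 0.17 in saline. Whether the reads came from stem-loop or from poly(A) ends cannot be read from gene counts, and these counts were not tested against each other. In a list of 6 genes known in mammals for polyadenylated forms, Hist1h1c rose in saline, Hist1h2bc and Hist2h2be fell, Hist4h4 was not called (0.13 ± 0.21), and Hist2h2aa1 and Hist2h2aa2 were not tested. At 100 µg 3 of the 4 tested genes were called higher and 1 lower, with a median of 0.56 beside -0.20 in saline. Hist4h4 rose there by 0.96 ± 0.21 (adjusted p 0.00108) without overlap between groups, Hist1h1c and Hist1h2bc were the others called higher, and Hist2h2be was called lower.

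**Figure D4:**
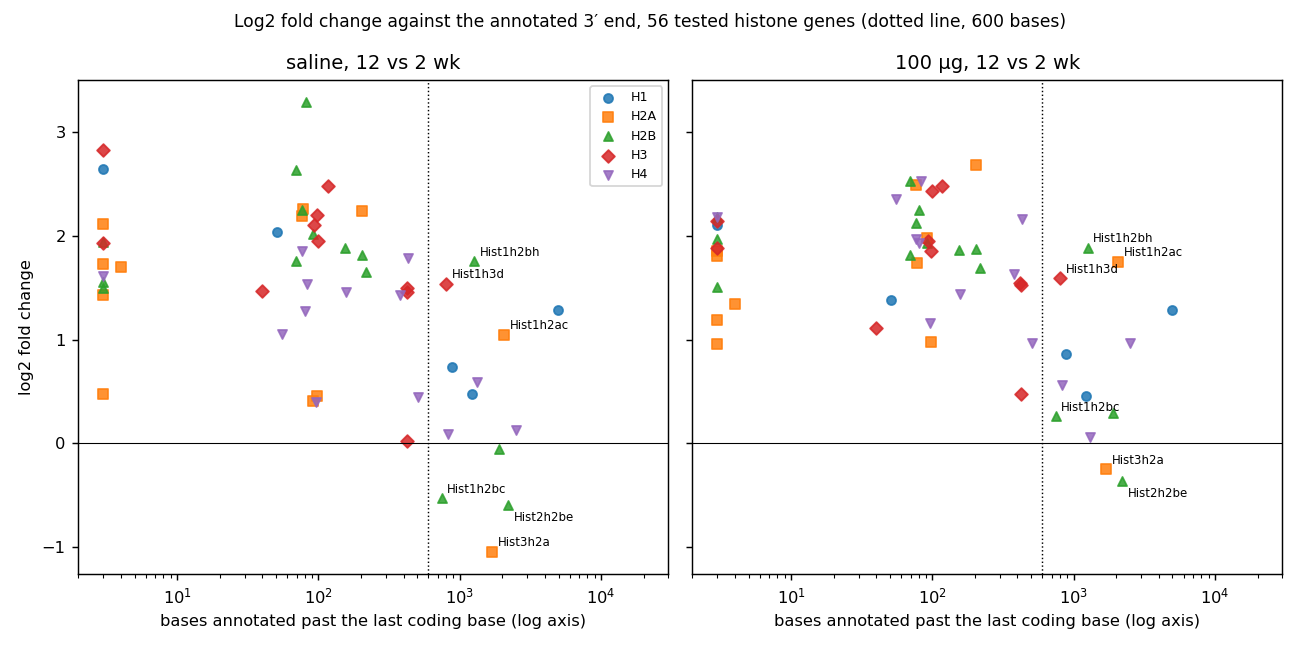
Log2 fold change from 2 to 12 weeks (vertical axes) against the number of annotated bases past the last coding base, stop codon included (horizontal log axes), for the 56 tested histone genes in saline (left) and at 100 µg (right), with a symbol per class and a dotted line at 600 bases. The 43 genes left of the line all lie above 0, the lowest being Hist2h3c2 at 0.02 in saline, and the genes called lower lie right of it.

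Few histone genes were called for extract against saline at either time, or between doses at 2 weeks. The shares of all tested genes called were low as well. For 10 µg against saline at 2 weeks edgeR called 0 of 56, with 5 at an unadjusted p under 0.05, and DESeq2 and limma-voom also called 0, beside 0.0407% of all tested genes in edgeR. For 100 µg against 10 µg all 3 tools called 0, with 2 at an unadjusted p under 0.05 (Hist1h2bc and Hist3h2a), beside 0% of all genes. For 100 µg against saline at 2 weeks edgeR called 0 higher and 2 lower, beside 4.12% and 4.01% of all genes. They were Hist1h2bc, at -0.69 ± 0.10 (adjusted p 0.000678), and Hist3h2a, at -0.63 ± 0.16 (adjusted p 0.0172). In both, all 5 treated libraries lay below all 5 saline libraries, as was the case for 3.13% of all genes. The Hist3h2a call was lost without replicate 2 of the 100 µg group, its lowest library, when the log2 fold change was -0.52 and the adjusted p 0.0723.

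At 12 weeks, 100 µg against saline gave 1 gene called higher and 0 lower in edgeR's test, with 9 at an unadjusted p under 0.05, beside 4.29% and 4.08% of all genes. Hist1h2ad, a sparsely counted H2A gene, had 8, 4, 5, 12 and 12 counts in the saline libraries and 17, 23, 22, 55 and 24 counts in the 100 µg libraries. All treated values were higher (1.60 ± 0.41, adjusted p 0.0294). The call ended without replicate 1 or 2 of saline or without replicate 2, 3, 4 or 5 of the 100 µg group, with adjusted p from 0.0528 to 0.104. Hist1h4m, an H4 gene, was also higher in all 5 treated libraries without being called (1.01 ± 0.36, adjusted p 0.0733). Such a full separation upwards was seen for 2 of the 56 and for 3.4% of all genes. The median over the 56 genes was 0.32, beside 0.01 over all genes, and 50 of the 56 changes were above 0, beside 50.8% of all genes. The sum of all members was 1.17 times that of saline on average, and the groups overlapped.

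The effect of 100 µg differed between the times for 2 genes, beside 4.74% of all genes with a higher effect at 12 weeks. The difference in log2 fold change, 12 minus 2 weeks, was 0.79 ± 0.14 for Hist1h2bc (adjusted p 0.00523) and 0.80 ± 0.22 for Hist3h2a (adjusted p 0.0289). The Hist1h2bc call held in each of the 28 alternatives run, and the Hist3h2a call was lost in 10, 7 of them the removal of 1 library (replicate 1 of saline or 2 of 100 µg at 2 weeks, replicate 4 or 5 of saline or 2, 3 or 5 of 100 µg at 12 weeks). Without replicate 4 of saline at 2 weeks 4 genes were called. At 12 weeks alone their changes were 0.10 ± 0.10 and 0.17 ± 0.16, neither called. The saline and 100 µg groups of both times enter this test, so it equals the difference between the changes over time given above.

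Markers of dividing cells were also higher at 12 weeks. Of 22 DNA replication and S phase genes, 19 rose and 0 fell in saline, and 21 rose and 0 fell at 100 µg. The shares of all tested genes that rose were 28.5% and 22.1%. In saline Mcm2, a subunit of the replicative helicase, rose by 1.11 ± 0.11, Rrm2, which makes deoxyribonucleotides, by 1.75 ± 0.17, Tk1, thymidine kinase, by 2.24 ± 0.22, and Mcm3 by 0.81 ± 0.09. Replicates 1 and 2 of saline at 12 weeks had the highest S phase sums of all libraries, 855 and 1020 CPM, and the lowest sums of short-ended histones of their group, 384 and 374 CPM. They were also the lowest of the group in Hist1h4h (23.4 and 23.7 CPM, the others 43.2 to 52.6) and Hist4h4 (9.17 and 9.18 CPM, the others 15.9 to 17.6), and the highest in Hist1h1a (33.2 and 39.9 CPM, the others 18.8 to 25.8), Hist1h2ak and Hist1h2af (10.6 and 10.8 CPM, the others 7.07 to 9.14). In the 100 µg group at 12 weeks replicate 4 was the highest in both sums, with 819 and 781 CPM. Replicate 2 of the 100 µg group at 2 weeks had the highest short-ended histone sum of the 2-week libraries, 276 CPM, with an S phase sum of 364 CPM inside its group's range of 332 to 372.

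**Figure D5:**
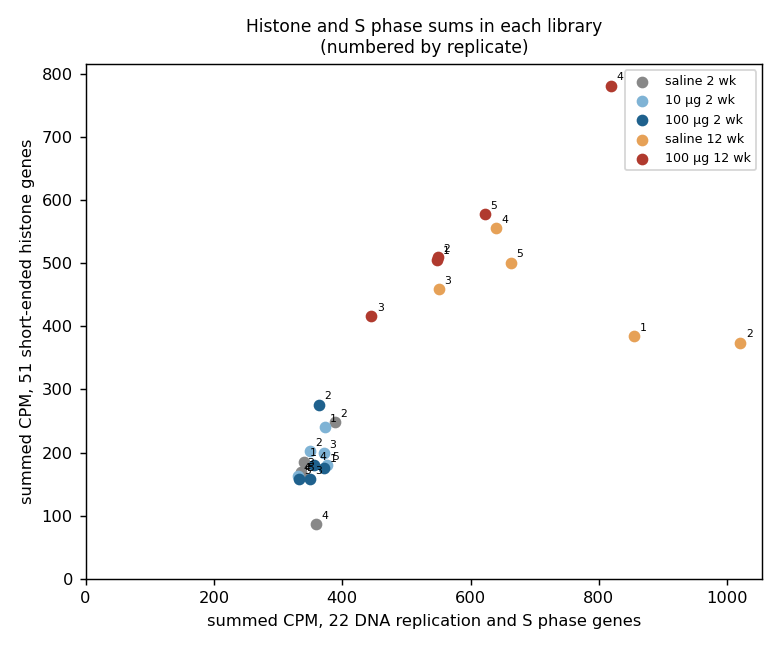
Summed CPM of 51 short-ended histone genes (vertical axis) against summed CPM of 22 DNA replication and S phase genes (horizontal axis) in the 25 libraries, coloured by group and numbered by replicate; both axes start at 0. The 2-week libraries hold S phase sums of 332 to 388 CPM and histone sums of 86.6 to 276 CPM, and saline replicates 1 and 2 at 12 weeks combine the highest S phase sums with 384 and 374 CPM of histones.

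Markers of lymphocytes moved with time as well. Over all tested genes 28.5% were called higher and 25.6% lower in saline, and 22.1% and 16.4% at 100 µg. Of 6 T cell genes 5 rose in saline and 6 at 100 µg, for example Lck (1.15 ± 0.13 and 0.79 ± 0.13). Of 6 B cell genes 4 rose in saline, while 0 were called in either direction at 100 µg in edgeR's test. There 3 had an unadjusted p under 0.05, in both directions: Cd79a (0.45), Cd22 (0.50) and Ms4a1 (-0.41). The T cell sum was 57.4 to 78.2 CPM in saline at 2 weeks and 86.9 to 106 CPM at 12 weeks. The summed erythroid genes ranged from 284 to 994 CPM in saline and from 481 to 3707 CPM at 100 µg, and thymus genes from 6.00 to 12.0 and from 6.20 to 32.7 CPM, at 12 weeks. Of 5 tested erythroid genes 3 fell in saline and 0 of 5 were called at 100 µg, and 0 of 4 tested thymus genes were called in either comparison. No testis gene of 6 passed the count filter. Of the 7 lung-defining genes 2 were called lower and 0 higher in saline at 12 weeks, and 2 had a log2 fold change above 0. The part of these cell types, of ribosomal RNA content and of the lower lung-defining sum in the histone values was not tested.

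Genes that make, process and place histones did not move as one group. Of 16 genes of histone transcription and mRNA processing, 2 rose and 3 fell in saline at 12 weeks, and 3 rose and 2 fell at 100 µg. The shares of all tested genes, for this list and the chaperones below, were 28.5% higher and 25.6% lower in saline. At 100 µg they were 22.1% and 16.4%. Npat, the transcriptional activator of these genes, fell by 0.19 ± 0.08 (adjusted p 0.0396) and 0.36 ± 0.08, Cstf2, a cleavage factor subunit, fell by 0.43 ± 0.07 in saline, Casp8ap2, which is needed for histone mRNA processing, fell by 0.58 ± 0.14 in saline, and Sympk, a scaffold of the cleavage complex, rose by 0.54 ± 0.15 and 0.55 ± 0.15. Of 13 histone chaperone genes 6 rose and 3 fell in saline, and 6 rose and 1 fell at 100 µg. Chaf1a and Chaf1b, subunits of the replication-coupled assembly factor CAF-1, rose by 1.12 ± 0.13 and 1.10 ± 0.16 in saline, and Asf1b, the chaperone of proliferating cells, by 1.54 ± 0.27. Its paralogue Asf1a fell by 0.71 ± 0.10.

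Replacement histone genes, which are made outside S phase as well, were mixed: of 11, 6 rose and 2 fell in saline, and 6 rose and 0 fell at 100 µg. Among all tested genes 28.5% rose and 25.6% fell in saline, and 22.1% rose and 16.4% fell at 100 µg. H2afx, whose protein is phosphorylated at DNA breaks, rose by 2.06 ± 0.27 and 1.83 ± 0.26, and Cenpa, the centromeric H3, by 1.06 ± 0.13 and 0.72 ± 0.12. Their summed level was 927 ± 92.1 CPM in saline at 2 weeks and 927 ± 55.5 CPM at 12 weeks. At 100 µg against saline at 2 weeks the linker variants H1fx and H1f0 were the 2 called higher (1.28 ± 0.34 and 0.37 ± 0.10), beside 4.12% of all genes. At 12 weeks 0 of 11 were called in edgeR's test, with 5 at an unadjusted p under 0.05.

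Not every histone gene could be read on its own. In the median member 54.05% of 50-base windows of the annotated exons occur in another gene as well, 34 members share over 50% of their windows, and 5 share all of them. Of the 11 untested genes, Hist2h3c1, Hist1h2ap and Hist1h2br had 0 counts over all libraries, Hist2h2aa1, Hist1h2bq and Hist1h2aa 1, Hist1h2ba 2 and Hist1h2ao 4, while Hist1h2ah had 115, Hist1h1t 124 and Hist2h2aa2 197. Most of these, such as Hist2h2aa1 and Hist2h2aa2 with 100% of windows shared, are near-identical copies, so a count of 0 there is no sign of an unexpressed gene. Among the tested genes named here, those with over 50% of windows shared are uncertain for this reason: Hist2h3b (100%), Hist1h2af (94.0%), Hist1h3h (93.9%), Hist1h2ai (90.1%), Hist1h4m (89.8%), Hist1h2bn (86.5%), Hist1h2an (85.8%), Hist1h2bk (74.2%), Hist1h3e (73.4%), Hist1h2ad (67.1%), Hist2h3c2 (63.5%), Hist1h3b (60.4%), Hist1h2bj (59.4%), Hist1h2ak (57.0%), Hist2h2ac (55.0%) and Hist1h3g (54.05%). By contrast, Hist1h1b, Hist1h1a and Hist2h2be share 0% and Hist1h1c 8.54%. Annotated genes overlap 24 of the 67, 21 of them on the opposite strand.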

How the data were processed

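Lung RNA of 25 mice was sequenced, 5 per group, with groups and replicate numbers taken from the sample titles and treatment labels. Per the labels' protocols, total RNA was made into stranded libraries. Per the submitters' processing notes, the authors aligned reads with STAR 2.5.3a to GRCm38. Neither the read counter nor its strand setting or annotation is given in the sources used here. Values in the deposited table are raw whole-number counts of reads for each gene. The members and gene lists were chosen with earlier results of these data known.

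Histone genes were matched by symbol, and coordinates, exon lengths and stem-loops came from GENCODE M21. Stem-loops are 16 bases long. Genes with low counts were removed with filterByExpr in edgeR 4.0.16 (R 4.3.3), libraries were normalized by TMM (trimmed mean of M values), and all 25 libraries entered 1 quasi-likelihood fit with group as the only term. Benjamini-Hochberg adjustment ran over 19654 genes. Log2 fold changes depend on edgeR's prior count where counts are near 0. The steps were tested on simulated counts. Alternatives were DESeq2 size factors, no filter, a filter of 1 CPM in 5 libraries, limma-voom (limma 3.58.1), the DESeq2 1.42.0 Wald test, a replicate block, the compared groups alone, and leaving out each library. Leaving out 2 libraries that stood apart was added after the data were seen. No pair of the 300 pairs of libraries differed by less than sampling noise (lowest chi-square per degree of freedom 12.1). Replicate numbers are given per group, with no cage, day or batch stated, so p-values measure the spread between these mice.

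Genes named in the text are the 4 of each class with the highest mean CPM, up to 5 called genes with the smallest p per comparison and direction, 6 genes known for polyadenylated transcripts, and up to 4 genes per list; others were named after their values were seen. One gene of the processing list was entered under a misspelt symbol and 2 under older symbols, and these were corrected after the table was seen. A further cell type marker list is not reported here.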

Additional observations from a re-analysis of the deposited data

Results flagged for a closer look

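Sums of CPM over each histone class were examined for a library far from the other 4 of its group, in 30 groups, and 3 stood out; chance alone flags about 1 in 20. The H3 sum of replicate 2 in the 100 µg group at 2 weeks was 75.8 CPM, while the other 4 libraries held 38.5 to 43.5 CPM. The H2B sum of replicate 2 in saline at 2 weeks was 180.6 CPM, beside 133.8 to 146.8 CPM. The H2A sum of replicate 1 in the 10 µg group was 65.8 CPM, beside 48.4 to 51.5 CPM. These 3 libraries did not hold unusual totals, with 35.7 M, 45.1 M and 45.6 M counts (M, mega). In the same order, ribosomal RNA took 1.72%, 0.258% and 1.21% of counts, and mitochondrial genes 3.27%, 1.99% and 3.25%. Both shares of the saline library were the lowest of all 25 libraries, and both of the 100 µg library the lowest of its group.

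The effect of 100 µg of extract was called higher at 12 than at 2 weeks for 2 of the 56 tested histone genes, beside 4.74% of all genes. The difference in log2 fold change, 12 minus 2 weeks, was 0.79 for Hist1h2bc and 0.80 for Hist3h2a, each from edgeR's test of the difference itself. The Hist1h2bc call held in all 28 alternatives, and the Hist3h2a call was lost in 10 of 28.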

How the results depend on the processing

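The counts of called histone genes over time kept within 1.5 times of the reported ones in all 18 alternatives each, from 46 to 51 (48 reported) in saline and from 48 to 53 (53 reported) at 100 µg, and both dose comparisons with the 10 µg group stayed at 0. Each refit counted the histone genes that passed its own filter, so the genes tested could differ from the 56. For 100 µg against saline at 2 weeks, 1 gene instead of 2 was called with only the compared groups and when both set-apart libraries (saline replicate 4 and 100 µg replicate 2) were left out, an alternative chosen after seeing the data. Leaving out 1 library gave 1 to 3. For 100 µg against saline at 12 weeks (1 reported), 0 were called under the stricter filter, which removed the called gene, and 0 with only the compared groups, 5 with limma-voom and 2 with DESeq2. Leaving out 1 library gave 0 to 3. For the difference of the 100 µg effects (2 reported), 1 was called with no filter, 1 with only the compared groups, and 7 with both set-apart libraries left out. Leaving out 1 library gave 1 to 4. Of 684 values of named genes under alternatives 643 kept direction and side of the threshold, 36 lost a call, 2 gained one and 3 reversed, all 3 of Hist1h4d in saline (0.09, not called): it ran from -0.12 without replicate 4 at 2 weeks to 0.21 without replicate 2 at 2 weeks, and was -0.12 with both set-apart libraries left out and below 0 without replicate 4 at 12 weeks. Beyond these, direction turned in 9 of 17 alternatives for Hist2h3c2 in saline (-0.11 to 0.24) and in 3 of 18 for Hist2h4 at 100 µg (-0.11 to 0.16), neither called. Other causes were not tested.

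Whether equal replicate numbers pair the mice was not settled. In 50 same-numbered pairs the correlation of deviations ran from -0.451 to 0.366, over 0.1 in 4, and differently numbered pairs were not examined beside them. With the replicate as a block, the counts were 0, 2 and 0 at 2 weeks, 1 at 12 weeks, 48 and 51 over time and 2 for the difference.

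Depth limits the sparsest genes: Hist1h2ad, Hist1h2bk and Hist1h3h held as few as 0 or 1 counts in a library.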
